A study of Homo sapiens with 6 samples.

Results

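The 48 genes described here encode the DNA replication machinery and its S-phase partners, and they were followed by RNA-seq in the human endometrial adenocarcinoma line HEC-1-A. The genes were chosen by name from known roles, with earlier results of these data known. All 48 were found among the 23228 genes counted in each library. The control group was 3 libraries (replicates 1, 2 and 3) of cells kept in McCoy's 5A medium with 10% FBS, which according to the methods of the study received vehicle. The treated group was 3 libraries of cells in the same medium with SMIP34, a small-molecule inhibitor of the oncogenic scaffold protein PELP1, at 20 µM for 24 h. The comparison asked which transcripts changed when PELP1 was inhibited. The labels do not say that the replicates were separate cultures, so the p-values measure the spread between these libraries, which may be technical.

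Replication begins when the origin recognition complex, CDC6 and CDT1 load the ring-shaped MCM2-7 helicase onto DNA in G1. In S phase MCM10, CDC45 and the GINS complex turn the loaded rings into active helicases, polymerase alpha-primase starts each strand, and polymerases delta and epsilon extend it while held by the PCNA clamp, which the RFC complex loads. RPA coats single-stranded DNA, FEN1 and LIG1 join the Okazaki fragments of the lagging strand, and many of these genes are transcribed from the G1/S transition onwards under the control of E2F factors, so that their mRNA levels are widely used as a readout of proliferation in tumour cells. RNA of a whole culture cannot tell a change in the share of cells in S phase from a change in RNA per cell.

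Each library held between 19562711 and 22014835 counts on genes, and 13408 genes had enough counts to be tested. Values are given as CPM, the count of a gene set against the TMM-scaled total of its library. For the cell type markers alone, the library total was not scaled. Log2 fold changes, standard errors and adjusted p-values compare SMIP34 with control in edgeR's quasi-likelihood test with Benjamini-Hochberg adjustment over all 13408 genes, and a gene is said to have risen or fallen where that adjusted p was under 0.05. A second threshold, an absolute log2 fold change over 0.5, follows the methods of the study. Replicates of a group differed from each other by a chi-square per gene of 1.89 to 3.26, against 8.75 to 13.2 between a control and a treated library, and with a biological coefficient of variation of 3.03% even differences of a few percent could pass the test. PELP1 mRNA itself rose from 139 ± 6.498 CPM (SD, n = 3) to 156 ± 4.43 CPM (SD, n = 3) (log2 fold change 0.16, standard error 0.035, adjusted p = 0.000746). The study reports from Western blots of endometrial cancer cells that SMIP34 lowered PELP1 protein, which RNA counts do not measure. All 7 epithelial markers were above 1 CPM in every library, with a sum of 3648 to 3731 CPM in control and 3622 to 3660 CPM in SMIP34 libraries. Of 6 fibroblast markers 1 reached that level, with a sum of 3.59 to 4.47 CPM in control and 4.72 to 5.21 CPM in SMIP34 libraries and 1 marker at 0 in every library. None of 7 endothelial and immune markers reached it, with sums of 1.15 to 2.10 CPM and 1.07 to 2.05 CPM, and CD3E and MS4A1 were at 0 in every library.

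Replication genes kept close to their control level, and a minority moved by small amounts. Of the 48 genes, 15 rose, 4 fell and 29 did not pass the test. Over all genes tested 34.6% passed in either direction, 17.4% upwards and 17.2% downwards, against 39.6%, 31.25% and 8.33% of the replication genes. Whether the replication genes differ from other genes in these shares was not tested. None of the 48 passed the fold threshold as well, in edgeR, DESeq2 or limma voom, although 23 had an unadjusted p under 0.05 in edgeR, while 3.31% of all genes passed both thresholds. Every 95% confidence interval lay within 0.5 of 0 on the log2 scale, and 30 of the 48 lay within 0.2. The median log2 fold change was 0.050 for the replication genes and -0.0022 for all genes tested, with a range of -0.18 to 0.33 among the members. Taken library by library, the median deviation of the 48 genes from their control mean was -0.02 to 0.01 in the control libraries and 0.03 to 0.06 in the SMIP34 libraries on the log2 scale, and the groups did not overlap.

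The upward calls outnumbered the downward calls under every scaling that was run, but their ratio moved. With upper quartile scaling 12 genes rose and 6 fell, and with length offsets, which take out the trend of a library with exon length, 17 rose and 2 fell. The summed level of the 48 genes was 6064, 6103 and 6011 CPM in the control libraries and 6199, 6231 and 6179 CPM in the SMIP34 libraries. All treated sums were above all control sums, and the mean went from 6059 ± 46.2 CPM (SD, n = 3) to 6203 ± 26.1 CPM (SD, n = 3), a difference of 2.37%.

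**Figure D1:**
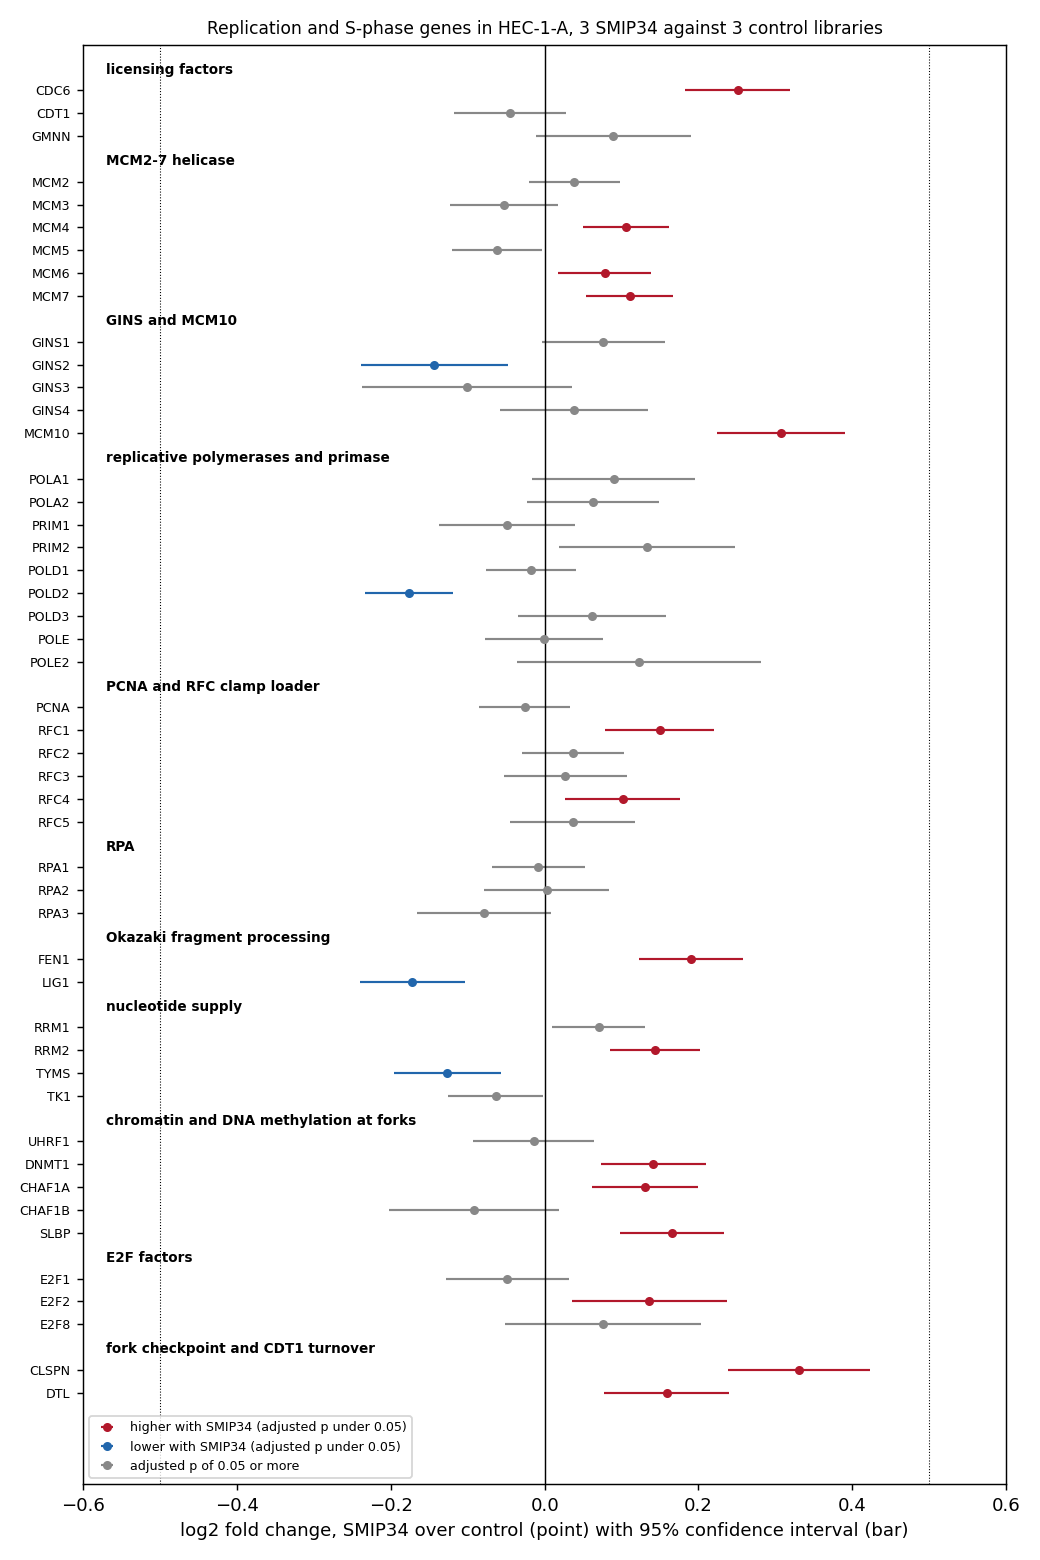
Log2 fold change of SMIP34 over control (x axis) for each of the 48 replication and S-phase genes, grouped by role, with the point as the estimate, the bar as its 95% confidence interval and dotted lines at the fold threshold of 0.5. The 15 genes that rose reached at most 0.33 (CLSPN) and the 4 that fell at most -0.18 (POLD2), and no interval reached a dotted line.

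The promoters of some of the genes that rose or fell are shown here because shared promoter elements are the classical route to coordinated S-phase expression. E2F factors bind variants of a short GC-rich element, and NF-Y binds the CCAAT box. The words searched on both strands were TTTCCCGC, TTTCGCGC, TTTGCCGC and TTTGGCGC for E2F and CCAAT for the CCAAT box, in the 250 bases before the RefSeq start of each gene in the GRCh38.p14 assembly, a different build from the hg19 coordinates of the counts. Of the 48 genes 41 had a promoter in the RefSeq table. The sequences below run 5′ to 3′ along the gene's strand, and capitals mark the E2F words and CCAAT boxes on either strand. The first group is the 3 largest rises, the second MCM6, the gene with the most E2F words among the 41, and the third is the 3 genes that fell without overlap between the groups.
CLSPN (chr1:35769979-35770228, minus strand): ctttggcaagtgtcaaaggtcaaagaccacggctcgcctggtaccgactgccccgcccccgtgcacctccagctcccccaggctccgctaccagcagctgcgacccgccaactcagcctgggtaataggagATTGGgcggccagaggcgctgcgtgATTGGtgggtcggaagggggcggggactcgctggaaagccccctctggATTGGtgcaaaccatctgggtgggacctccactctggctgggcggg
MCM10 (chr10:13161308-13161557, plus strand): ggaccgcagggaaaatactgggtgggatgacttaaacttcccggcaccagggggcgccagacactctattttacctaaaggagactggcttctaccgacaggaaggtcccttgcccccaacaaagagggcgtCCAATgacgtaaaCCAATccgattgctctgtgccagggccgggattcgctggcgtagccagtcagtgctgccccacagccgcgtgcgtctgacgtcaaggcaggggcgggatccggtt
CDC6 (chr17:40287629-40287878, plus strand): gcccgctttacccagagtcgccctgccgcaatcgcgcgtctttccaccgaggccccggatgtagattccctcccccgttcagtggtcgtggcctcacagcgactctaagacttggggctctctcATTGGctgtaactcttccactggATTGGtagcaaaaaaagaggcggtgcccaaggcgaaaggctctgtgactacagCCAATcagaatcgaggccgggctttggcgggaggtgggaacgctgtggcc
MCM6 (chr2:135876444-135876693, minus strand): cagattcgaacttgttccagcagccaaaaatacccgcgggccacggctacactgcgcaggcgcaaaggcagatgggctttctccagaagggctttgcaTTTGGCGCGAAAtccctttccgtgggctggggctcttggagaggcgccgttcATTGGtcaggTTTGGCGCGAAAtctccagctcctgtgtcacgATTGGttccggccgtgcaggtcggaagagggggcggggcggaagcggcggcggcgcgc
POLD2 (chr7:44123549-44123798, minus strand): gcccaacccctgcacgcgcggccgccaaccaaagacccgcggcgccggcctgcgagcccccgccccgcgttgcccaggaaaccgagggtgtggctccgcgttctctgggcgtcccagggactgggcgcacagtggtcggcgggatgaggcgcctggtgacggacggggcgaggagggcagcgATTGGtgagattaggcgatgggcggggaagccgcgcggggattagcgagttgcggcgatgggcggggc
LIG1 (chr19:48170345-48170594, minus strand): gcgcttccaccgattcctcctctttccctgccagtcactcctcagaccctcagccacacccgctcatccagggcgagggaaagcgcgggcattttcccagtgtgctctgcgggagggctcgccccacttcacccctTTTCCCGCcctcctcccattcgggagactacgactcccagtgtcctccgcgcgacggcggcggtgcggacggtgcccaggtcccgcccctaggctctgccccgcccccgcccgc
TYMS (chr18:657403-657652, plus strand): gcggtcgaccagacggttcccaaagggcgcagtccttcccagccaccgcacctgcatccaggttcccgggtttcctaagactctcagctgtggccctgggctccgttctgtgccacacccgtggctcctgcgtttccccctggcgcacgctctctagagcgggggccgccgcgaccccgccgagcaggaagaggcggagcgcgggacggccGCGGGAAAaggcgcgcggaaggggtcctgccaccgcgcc

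The promoters of the 3 largest rises held 3, 2 and 3 CCAAT boxes and none of the E2F words, although near variants of these words were not searched. MCM6 held 4 E2F words, in 2 pairs that overlap on opposite strands, and 2 CCAAT boxes. LIG1 and TYMS held 1 E2F word and no CCAAT box each, and POLD2 held 1 CCAAT box. Across the 41 promoters, 16 (39.0%) held an E2F word and 22 (53.7%) a CCAAT box. This compares with 2.79% and 33.0% of all 27305 RefSeq promoters of the same length, which include those of genes not tested here. Of the 16 genes with an E2F word 4 rose (MCM6, MCM7, E2F2 and DTL), 3 fell (GINS2, LIG1 and TYMS) and 9 did not pass, with a median log2 fold change of -0.0075. Of the 25 without one 10 rose, 1 fell and 14 did not pass, with a median of 0.089. Over all genes tested 17.4% rose and 17.2% fell. The difference between the 16 and the 25 genes was not tested, and a match of letters is not a bound site. Sequence after the start, or at other starts of a gene, was not searched, so sites there are counted as absent.

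Licensing factors were led by CDC6, the ATPase that recruits the MCM helicase to the origin. CDC6 (chr17:38444146-38459413, hg19, from first to last annotated base) was at 112, 113 and 114 CPM in control replicates 1, 2 and 3 and 137, 136 and 130.2 CPM in SMIP34 replicates 1, 2 and 3. Every treated library was above every control library, by 19.0% on average with a 95% confidence interval of 13.5 to 24.7% (log2 fold change 0.25, standard error 0.033, adjusted p = 1.37e-06). CDT1, its partner in loading, was not called and went from 141 to 136 CPM, with a log2 fold change of -0.045 (adjusted p = 0.349). GMNN, which encodes the CDT1 inhibitor geminin, went from 37.3 to 39.7 CPM with a log2 fold change of 0.089 (adjusted p = 0.165), also not called although its groups did not overlap. The summed level of the 3 genes was 6.73% higher with SMIP34, and CDC6 was the only one of them that passed.

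Of the 6 subunits of the MCM2-7 ring, which occur in equal numbers in the complex, MCM4, MCM6 and MCM7 rose and MCM2, MCM3 and MCM5 did not pass. Differences between subunits were not tested. MCM7 (chr7:99690404-99699427) was at 329, 333 and 316 CPM in control replicates 1, 2 and 3 and 352, 351 and 353 CPM in SMIP34 replicates 1, 2 and 3. The treated libraries lay within 2 CPM of each other and above all controls (log2 fold change 0.11, standard error 0.028, adjusted p = 0.00256). MCM4 on chromosome 8 went from 301 ± 4.21 CPM (SD, n = 3) to 324 ± 6.42 CPM (SD, n = 3) (log2 fold change 0.11, standard error 0.027, adjusted p = 0.0037). MCM6 was at 302, 286 and 287 CPM in the control libraries and 302, 305 and 317 CPM in the SMIP34 libraries (log2 fold change 0.078, standard error 0.029, adjusted p = 0.0417), and its groups overlapped. That call was lost without control replicate 2 or 3 or without SMIP34 replicate 2 or 3, with adjusted p-values of 0.145, 0.067, 0.0747 and 0.224, and also in DESeq2 (0.056).

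MCM2, the subunit often stained as a proliferation marker, was at 257, 271 and 275 CPM in control replicates 1, 2 and 3 and 277, 274 and 274 CPM in SMIP34 replicates 1, 2 and 3 (log2 fold change 0.039, standard error 0.029, adjusted p = 0.324). The groups overlapped, and the 95% confidence interval of the difference ran from -1.44 to 7.06%. MCM5 was at 243, 247 and 249.6 CPM in the control libraries and 238, 239.7 and 231 CPM in the SMIP34 libraries, with every treated library below every control library, and had a log2 fold change of -0.062 (adjusted p = 0.0929), short of the threshold. It was called with upper quartile scaling (adjusted p = 0.0413). MCM3 had a log2 fold change of -0.052 (adjusted p = 0.252) with overlapping groups. Summed over the ring, the level was 1608 ± 4.92 CPM (SD, n = 3) in control libraries against 1664 ± 6.92 CPM (SD, n = 3) with SMIP34, 3.47% higher.

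The activators of the helicase held both a large rise and a fall. MCM10 (chr10:13203554-13253104), which helps turn the loaded helicase into an active one, was at 55.2, 53.9 and 54.1 CPM in control replicates 1, 2 and 3 and 66.2, 68.5 and 67.2 CPM in SMIP34 replicates 1, 2 and 3. Its groups were far apart compared with their spread, and the increase was 23.8% with a 95% confidence interval of 16.8 to 31.1%, the second largest rise of the 48 (log2 fold change 0.31, standard error 0.041, adjusted p = 1.38e-06). GINS2 was the GINS subunit that passed, in the downward direction, at 61.4, 63.7 and 57.5 CPM in the control libraries and 58.1, 52.6 and 54.7 CPM in the SMIP34 libraries (log2 fold change -0.14, standard error 0.047, adjusted p = 0.0185). Its groups overlapped, and the call was lost without control replicate 1 or 2 or SMIP34 replicate 2 or 3 (adjusted p = 0.0545, 0.13, 0.118 and 0.0588), in DESeq2 (0.0511) and with length offsets (0.254). GINS1 had a log2 fold change of 0.076 (adjusted p = 0.135), GINS3 -0.10 (adjusted p = 0.258) and GINS4 0.038 (adjusted p = 0.572). The 4 GINS subunits form 1 complex in equal numbers, and their estimates lay on both sides of 0.

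Among the 9 polymerase and primase genes 1 fell and 8 did not pass, and none rose in edgeR, DESeq2 or limma voom, PRIM2 alone having a higher level at an unadjusted p under 0.05 in edgeR. POLD2 (chr7:44154286-44163147), the small subunit that links the catalytic and accessory parts of polymerase delta, was at 347, 356 and 339.8 CPM in control replicates 1, 2 and 3 and 311, 302 and 309 CPM in SMIP34 replicates 1, 2 and 3. All treated libraries were below all controls, and POLD2 fell by 11.5% with a 95% confidence interval of -14.9 to -7.96% (log2 fold change -0.18, standard error 0.028, adjusted p = 1.63e-05). It had the highest level of the 9 per exon length and was the largest fall among all 48 genes. POLD1, the catalytic subunit of the same enzyme, had a log2 fold change of -0.018 (adjusted p = 0.681) and POLD3 0.062 (adjusted p = 0.331). The catalytic subunit of polymerase epsilon, POLE, was at 89.9, 89.0 and 95.8 CPM in the control libraries and 89.96, 93.2 and 91.5 CPM in the SMIP34 libraries, with a log2 fold change of -0.00067 (adjusted p = 0.991), a difference of -0.0467% with an interval of -5.23 to 5.41%.

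POLE2 had the lowest CPM of the 48 genes before scaling by length, at 17.0, 20.8 and 17.5 CPM in the control libraries and 21.4, 19.7 and 19.3 CPM in the SMIP34 libraries (log2 fold change 0.12, standard error 0.077, adjusted p = 0.233). Its control libraries had the largest coefficient of variation within a group of any of the 48 genes, 11.3%, and it was called without control replicate 2 alone among the left-out libraries (adjusted p = 0.0377). The polymerase alpha-primase genes, which make the RNA-DNA primer, had log2 fold changes of 0.090 (adjusted p = 0.187) for POLA1, 0.063 (adjusted p = 0.263) for POLA2, -0.049 (adjusted p = 0.416) for PRIM1 and 0.13 (adjusted p = 0.0645) for PRIM2. PRIM2 had groups that did not overlap and was called without control replicate 1 (0.0497), and part of its sequence has near copies in the genome, so that its count is less certain. The summed level of the 9 genes was 3.66% lower with SMIP34, having gone from 902 ± 12.5 CPM (SD, n = 3) to 869 ± 2.43 CPM (SD, n = 3), while the median of their log2 fold changes was above 0 at 0.062. The sum and the median differ in sign, and POLD2 alone made up 348 of the 902 CPM.

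PCNA, the sliding clamp and a widely used marker of S phase, was not called. Its level was 264, 256 and 250.5 CPM in control replicates 1, 2 and 3 and 257, 252 and 248 CPM in SMIP34 replicates 1, 2 and 3 (log2 fold change -0.026, standard error 0.029, adjusted p = 0.529). The groups overlapped, and the interval of the difference ran from -5.77 to 2.35%. Of the RFC clamp loader, which opens PCNA and closes it around DNA, RFC1 and RFC4 rose and RFC2, RFC3 and RFC5 did not pass. RFC1 (chr4:39289069-39368001), the large subunit, was at 145, 146 and 137 CPM in control replicates 1, 2 and 3 and 162, 161 and 152 CPM in SMIP34 replicates 1, 2 and 3, every treated library above every control (log2 fold change 0.15, standard error 0.034, adjusted p = 0.00127). RFC4 was at 80.5, 78.4 and 78.3 CPM in the control libraries and 85.2, 85.3 and 83.9 CPM in the SMIP34 libraries (log2 fold change 0.10, standard error 0.036, adjusted p = 0.0315), and this call was lost in DESeq2 (0.0847) and without each library in turn other than control replicate 1, with adjusted p-values of 0.0546 to 0.0911. RFC2 had a log2 fold change of 0.037 (adjusted p = 0.41), RFC3 0.027 (adjusted p = 0.643) and RFC5 0.036 (adjusted p = 0.518).

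None of the 3 RPA subunits, which together protect single-stranded DNA at the fork, passed in edgeR, DESeq2 or limma voom, and all 3 had an unadjusted p over 0.05. RPA1 was at 247, 242 and 234 CPM in the control libraries and 236, 239.9 and 243 CPM in the SMIP34 libraries (log2 fold change -0.008, standard error 0.029, adjusted p = 0.863). RPA2 had a log2 fold change of 0.0027 (adjusted p = 0.966) and RPA3 -0.079 (adjusted p = 0.158), all with overlapping groups. The intervals of the differences ran from -4.61 to 3.67% for RPA1, from -5.32 to 6.01% for RPA2 and from -10.9 to 0.591% for RPA3.

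The 2 Okazaki fragment genes moved in opposite directions. FEN1 (chr11:61560109-61564714), the nuclease that removes the flap left by the displaced primer, was at 116, 123 and 121 CPM in control replicates 1, 2 and 3 and 136, 138 and 139 CPM in SMIP34 replicates 1, 2 and 3. LIG1 (chr19:48618703-48673560), the ligase that then seals the nick, was at 154, 153 and 156 CPM in control replicates 1, 2 and 3 and 131, 142 and 137 CPM in SMIP34 replicates 1, 2 and 3. In neither gene did the groups overlap: FEN1 rose by 14.1% (log2 fold change 0.19, standard error 0.033, adjusted p = 5.7e-05) and LIG1 fell by 11.2% (log2 fold change -0.17, standard error 0.033, adjusted p = 0.000199). Per kilobase of exon FEN1 was at 1.05 times the level of LIG1 in control and 1.35 times with SMIP34, while the sum of both genes differed by less than its spread between replicates, which was 275 ± 3.41 CPM (SD, n = 3) without and 275 ± 6.74 CPM (SD, n = 3) with SMIP34. Both calls were kept in all 17 alternative analyses.

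The nucleotide supply genes also went both ways. RRM2 (chr2:10262695-10271546), the S-phase subunit of ribonucleotide reductase, was at 216, 220.4 and 216 CPM in control replicates 1, 2 and 3 and 236, 245 and 240.3 CPM in SMIP34 replicates 1, 2 and 3. It rose by 10.5% with no overlap (log2 fold change 0.14, standard error 0.029, adjusted p = 0.000302), and its partner RRM1 had a log2 fold change of 0.070 (adjusted p = 0.0658), not called although the groups did not overlap. RRM1 was called without control replicate 1 (adjusted p = 0.0336). TYMS on chromosome 18, the thymidylate synthase that fluorouracil blocks, was at 109, 109 and 108 CPM in the control libraries and 101, 97.4 and 99.8 CPM in the SMIP34 libraries and fell by 8.40% (log2 fold change -0.13, standard error 0.034, adjusted p = 0.00484). This call was lost with length offsets (log2 fold change -0.062, adjusted p = 0.141). TK1, the thymidine kinase of the salvage route, had a log2 fold change of -0.064 (adjusted p = 0.105) and was called without control replicate 3 (0.0333).

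**Figure D2:**
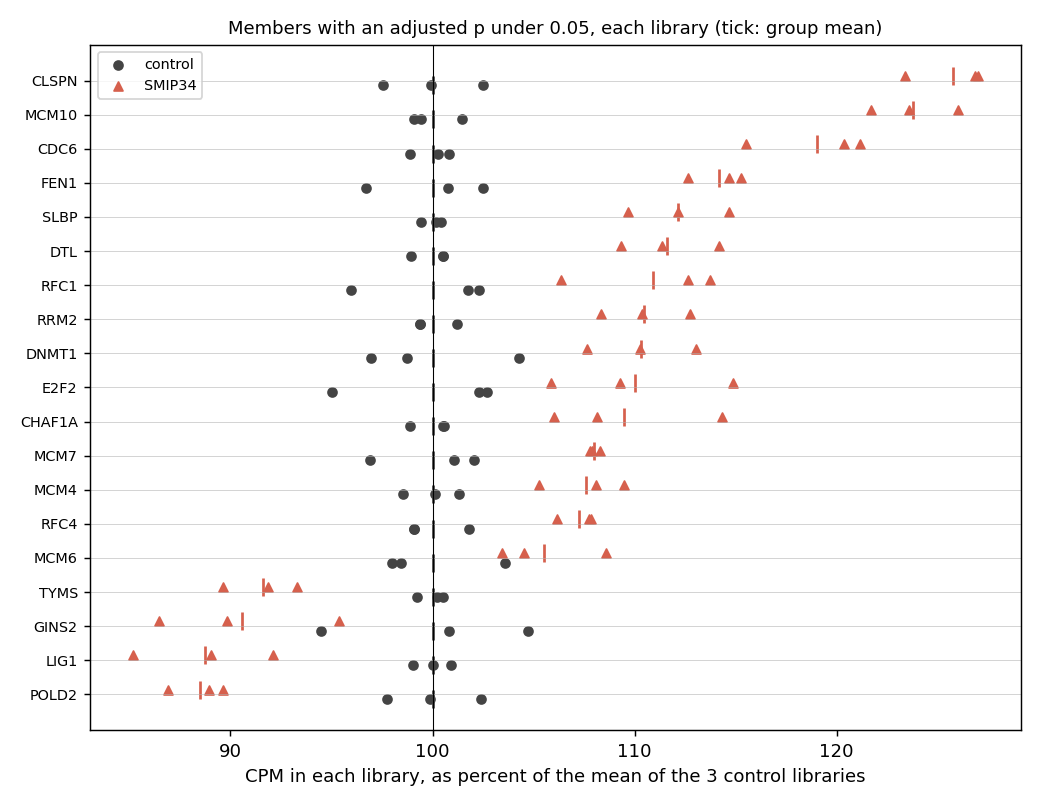
Level in each library (points, CPM as percent of the mean of the 3 control libraries, x axis) of the 19 replication genes that rose or fell, with a tick at each group mean. CLSPN, MCM10 and CDC6 stand apart at the top, and the groups overlap in MCM6 and GINS2 only.

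The genes of chromatin at the fork included 3 that rose and 2 that did not pass in edgeR, DESeq2 or limma voom. SLBP (chr4:1694527-1714030), which binds the stem-loop of replication-dependent histone mRNAs, was at 109.9, 111 and 111 CPM in control replicates 1, 2 and 3 and 124, 121 and 127 CPM in SMIP34 replicates 1, 2 and 3. The lowest treated library was above the highest control by more than the whole control range (log2 fold change 0.17, standard error 0.033, adjusted p = 0.000303). DNMT1, the maintenance DNA methyltransferase, went from 151 ± 5.75 CPM (SD, n = 3) to 167 ± 4.09 CPM (SD, n = 3) (log2 fold change 0.14, standard error 0.033, adjusted p = 0.00151). CHAF1A, the large subunit of the CAF-1 histone chaperone, went from 132 ± 1.25 CPM (SD, n = 3) to 144 ± 5.68 CPM (SD, n = 3) (log2 fold change 0.13, standard error 0.034, adjusted p = 0.00341), and in neither gene did the groups overlap. CHAF1B, the second CAF-1 subunit, had a log2 fold change of -0.092 (adjusted p = 0.197), and UHRF1, which guides DNMT1 to newly replicated DNA, had -0.014 (adjusted p = 0.808). The group as a whole was 7.65% higher in summed level with SMIP34.

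Of the E2F transcription factors, E2F2 rose and E2F1 and E2F8 did not pass. E2F2 (chr1:23832920-23857712), an activator of S-phase genes, was at 39.9, 43.1 and 43.0 CPM in control replicates 1, 2 and 3 and 48.3, 45.9 and 44.5 CPM in SMIP34 replicates 1, 2 and 3 (log2 fold change 0.14, standard error 0.049, adjusted p = 0.0329). The groups were separate but close, and the call was lost without control replicate 1, SMIP34 replicate 1 or SMIP34 replicate 2 (adjusted p = 0.152, 0.169 and 0.0665), in DESeq2 (0.0907) and with length offsets (0.113). E2F1, the best known activator, was at 71.9, 72.6 and 69.1 CPM in the control libraries and 68.4, 69.2 and 69.1 CPM in the SMIP34 libraries, with a log2 fold change of -0.048 (adjusted p = 0.361). E2F8, an atypical member that represses the same targets, had a log2 fold change of 0.076 (adjusted p = 0.372).

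The last group holds a fork checkpoint gene and a gene of CDT1 turnover, and both rose. CLSPN (chr1:36197713-36235551), which encodes claspin, the adaptor through which ATR activates CHK1 at stalled forks, was at 42.4, 41.4 and 43.5 CPM in control replicates 1, 2 and 3 and 52.4, 53.9 and 53.9 CPM in SMIP34 replicates 1, 2 and 3. This was the largest rise of the 48 genes, 25.8% with a 95% confidence interval of 17.97 to 34.1% (log2 fold change 0.33, standard error 0.045, adjusted p = 2.22e-06), and all treated libraries lay above all controls. DTL (chr1:212208919-212278187), the substrate receptor of the ubiquitin ligase that destroys CDT1 during S phase, was at 61.8, 61.8 and 60.8 CPM in the control libraries and 68.4, 70.1 and 67.2 CPM in the SMIP34 libraries (log2 fold change 0.16, standard error 0.040, adjusted p = 0.00271). Among the 29 genes that were not called, the 95% confidence intervals reached from -15.1 to 21.6%, so larger differences than these lay outside the interval of every one of them.

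The groups of libraries did not overlap in 19 replication genes that were higher with SMIP34 (39.6%) and 4 that were lower (8.33%). Of all genes tested these shares were 22.6% and 21.9%. In either direction the share was 47.9% of the 48, against 44.5% of all genes tested. Of the 19 genes that rose or fell, 14 kept their call in all 17 alternative analyses (12 that rose and POLD2 and LIG1 among those that fell), and MCM6, GINS2, RFC4, E2F2 and TYMS lost it in at least 1. No gene reversed its direction while called. A further 7 genes were called under an alternative only (GMNN, MCM5, PRIM2, POLE2, RFC2, RRM1 and TK1), and 22 were never called.

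Levels between genes can be compared only per length, and here they are given as CPM per kilobase of exon. The length is that of all annotated exons of a gene, whichever transcripts these cells express, so ratios between genes are approximate. In control cells the MCM2-7 genes lay within a narrow band, a ratio of 1.72. It ran from 56.2 ± 1.29 (SD, n = 3) for MCM3 to 96.8 ± 1.28 (SD, n = 3) for MCM5. With SMIP34 MCM5 was 1.71 times above MCM3, but MCM7 was then the highest, at 102 ± 0.239 (SD, n = 3). MCM3 was still the lowest, at 54.2 ± 2.73 (SD, n = 3). The RPA genes spanned a ratio of 1.46 in control and 1.53 with SMIP34. The polymerase and primase genes spread far more widely, from 7.40 ± 0.466 (SD, n = 3) for POLA1 to 196 ± 4.52 (SD, n = 3) for POLD2, and their ratio was 26.5 in control and 22.04 with SMIP34. PCNA, at 178 ± 4.83 (SD, n = 3), stood 6.48 times above RFC3, the lowest of its loader subunits. GINS2 stood 5.20 times above GINS3 although both belong to 1 complex. The order of levels within a role group was the same in both conditions in all groups other than the MCM2-7 and the nucleotide supply genes.

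**Figure D3:**
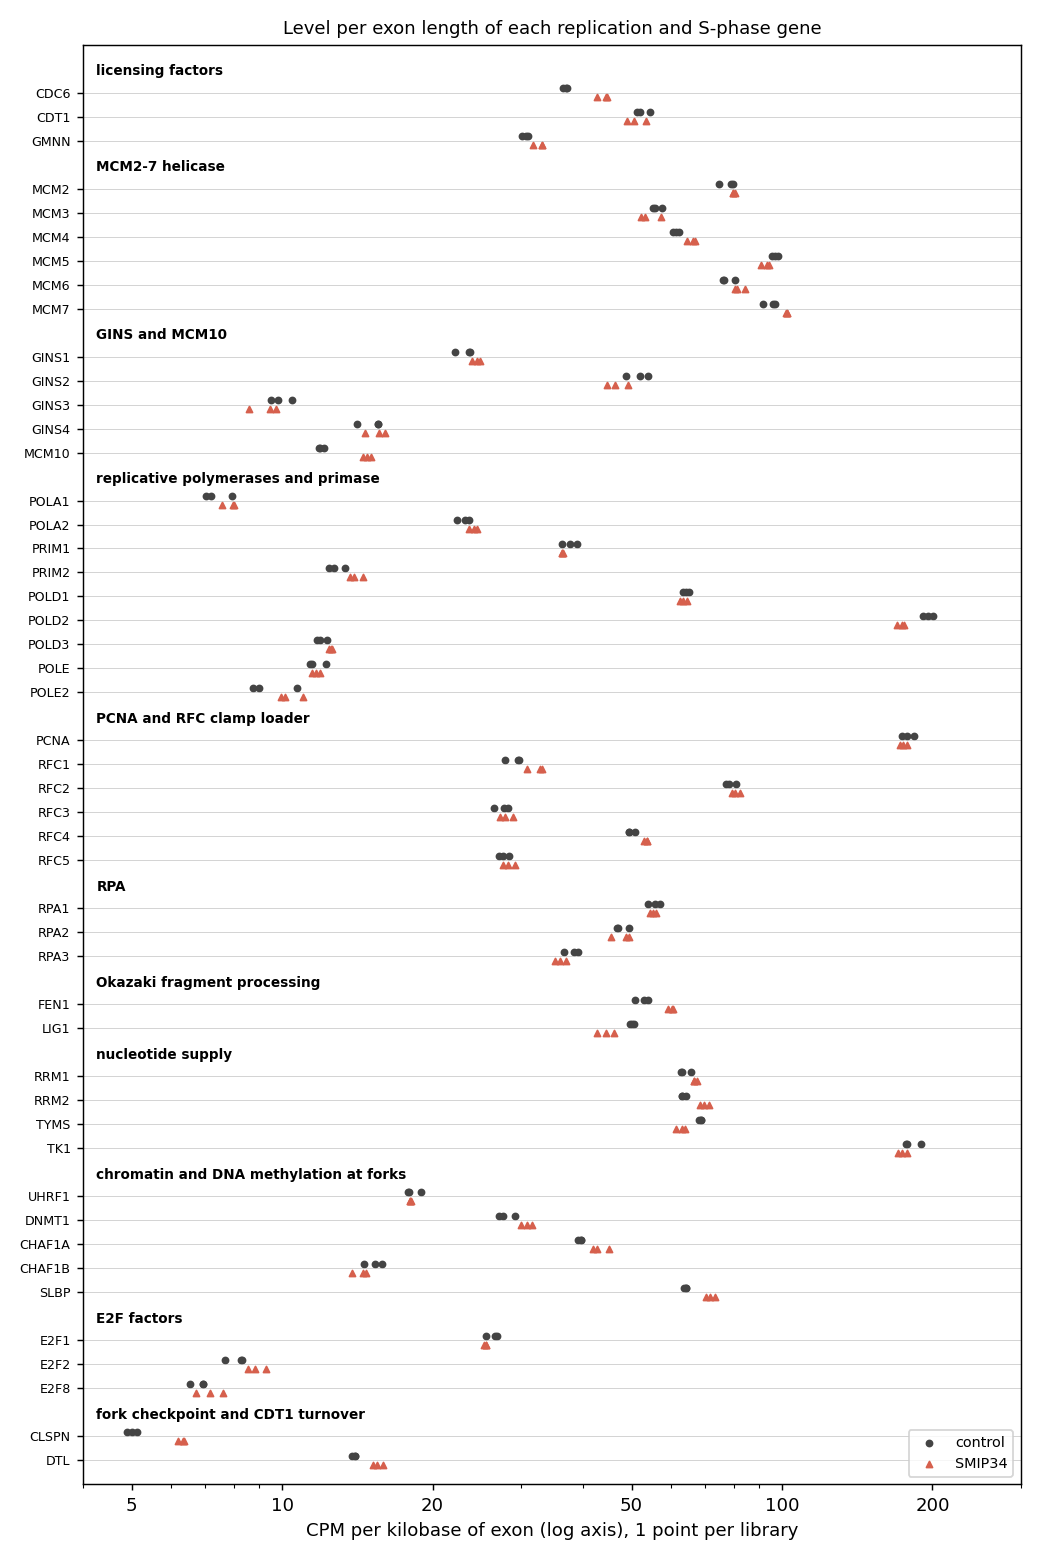
Level per exon length (CPM per kilobase of exon, log axis) of each of the 48 genes in the 3 control libraries (circles) and the 3 SMIP34 libraries (triangles), grouped by role. The MCM2-7 and RPA genes form narrow bands, while the polymerase genes run from POLA1 to POLD2, 26.5 times apart in control.

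Longer genes tended to have higher fold changes in these libraries, which touches the replication genes as well. When the genes tested were split into 10 equal classes by exon length, the median log2 fold change was -0.10 among the shortest and 0.12 among the longest. The replication genes had exon lengths of 1180 to 8484 bases with a median of 3068, close to the 3028 bases of all genes tested. The 15 that rose had a median of 3751 bases, the 4 that fell 1679 and the others 2675. With the length offsets, 15 of the 19 calls were kept. MCM6, GINS2, TYMS and E2F2 were lost, and GMNN (log2 fold change 0.17), PRIM2 (0.17), RFC2 (0.098) and RRM1 (0.069) rose. CDC6 was at 0.25, MCM10 at 0.28, CLSPN at 0.24, POLD2 at -0.12 and LIG1 at -0.17 under these offsets, all still called.

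**Figure D4:**
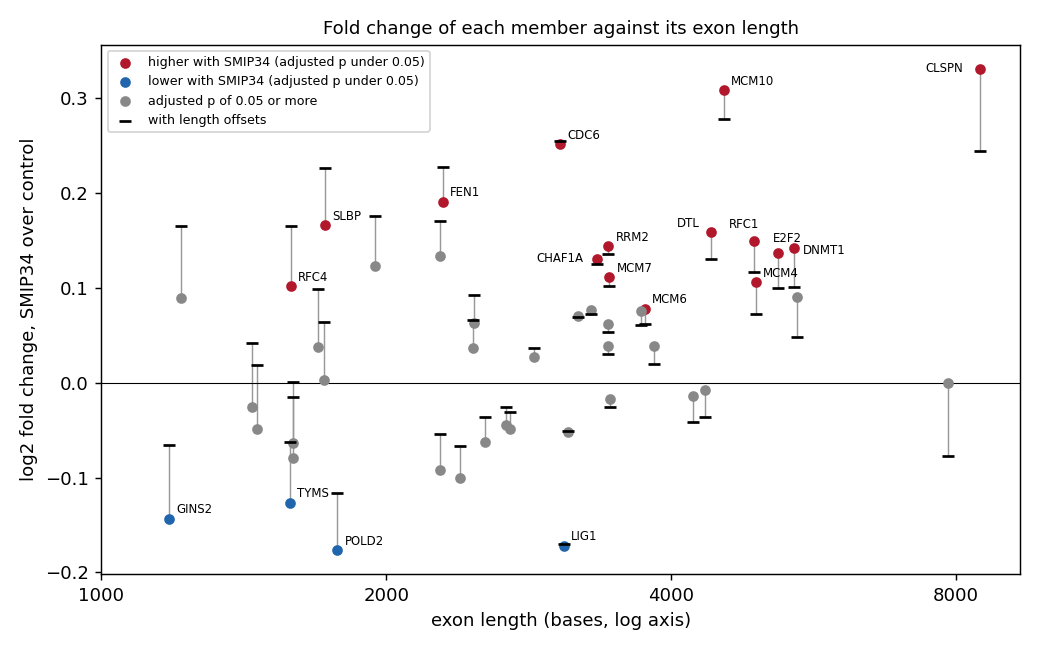
Log2 fold change of SMIP34 over control (y axis) against exon length in bases (log x axis) for each of the 48 genes, with the point as the main estimate, colour as its call and the dash as the estimate with length offsets. Most of the shorter genes move up and most of the longer genes down under the offsets, CDC6 and LIG1 hardly move, and CLSPN, the longest, goes from 0.33 to 0.24.

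Among other genes of replication outside the 48, changes were also small and went in both directions. Of 43 such genes, all tested, 10 rose (23.3%), 6 fell (13.95%) and 27 did not pass. These shares were 17.4% and 17.2% of all genes tested, and 31.25% and 8.33% of the 48. In either direction 37.2% of the 43 passed, against 34.6% of all genes tested. Differences between these shares were not tested. None of the 43 passed both thresholds in edgeR, DESeq2 or limma voom (19 had an unadjusted p under 0.05). Their median log2 fold change was 0.034. Without SMIP34 replicate 2 this median was -0.0014, so that its sign rested on 1 library. The largest rises were those of CDC25A, the phosphatase that activates CDK2, from 43.9 ± 1.56 CPM (SD, n = 3) to 55.3 ± 2.20 CPM (SD, n = 3) (log2 fold change 0.33, standard error 0.047, adjusted p = 3.81e-06) and ORC6, a subunit of the origin recognition complex, from 27.4 ± 1.09 CPM (SD, n = 3) to 34.1 ± 1.86 CPM (SD, n = 3) (log2 fold change 0.31, standard error 0.058, adjusted p = 0.000135). The largest falls were those of RNASEH2C, a subunit of the nuclease that removes ribonucleotides from DNA, from 60.8 ± 2.97 CPM (SD, n = 3) to 51.1 ± 2.00 CPM (SD, n = 3) (log2 fold change -0.25, standard error 0.046, adjusted p = 0.000117), and of POLE4, an accessory subunit of polymerase epsilon, with overlapping groups (log2 fold change -0.19, standard error 0.057, adjusted p = 0.0133). The POLE4 call was lost without control replicate 1 or 2 or SMIP34 replicate 1 (adjusted p = 0.0761, 0.085 and 0.114) and with length offsets (0.309).

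The genes that bracket S phase were counted in the same way. Over all genes tested 17.4% rose, 17.2% fell and 34.6% passed in either direction. Of 23 genes of G1/S control 22 were tested, CCND2 being too low. Of these 22 genes 7 rose (31.8%), 1 fell (4.55%) and 14 did not pass, with a median of 0.076. The 2 that passed both thresholds were CDKN1A, the CDK inhibitor p21, from 6.14 ± 0.492 CPM (SD, n = 3) to 11.6 ± 0.342 CPM (SD, n = 3) (log2 fold change 0.92, standard error 0.103, adjusted p = 1e-07), and CDK6, from 8.07 ± 0.624 CPM (SD, n = 3) to 11.5 ± 0.677 CPM (SD, n = 3) (log2 fold change 0.52, standard error 0.098, adjusted p = 0.000181). CDK6 was below the fold threshold without control replicate 3 (0.47), without SMIP34 replicate 1 (0.48) and with length offsets (0.39). CDK4 fell by 7.78% (log2 fold change -0.12, standard error 0.032, adjusted p = 0.00578), a call lost with length offsets (adjusted p = 0.18). Of 24 mitosis genes 15 rose (62.5%) and 9 did not pass, with a median of 0.13. None fell in edgeR, DESeq2 or limma voom (17 had an unadjusted p under 0.05 in edgeR, in either direction), although UBE2C was called lower under 3 other alternatives. The largest of these rises were BUB1, a spindle checkpoint kinase, from 125 ± 2.85 CPM (SD, n = 3) to 159 ± 2.60 CPM (SD, n = 3) (log2 fold change 0.35, standard error 0.032, adjusted p = 3e-09), and MKI67, the Ki-67 proliferation antigen, from 327 ± 15.2 CPM (SD, n = 3) to 416 ± 9.89 CPM (SD, n = 3) (log2 fold change 0.35, standard error 0.031, adjusted p = 1.72e-09). With length offsets MKI67, whose exons span 12495 bases, was at 0.21, and its call was kept. BUB1 (0.34), PTTG1 (0.29), CDC20 (0.27), ANLN (0.25) and AURKB (0.22) were then above MKI67. The summed level of the mitosis genes was 10.8% higher with SMIP34, against 2.37% for the 48 replication genes. The differences between these lists were not tested.

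**Figure D5:**
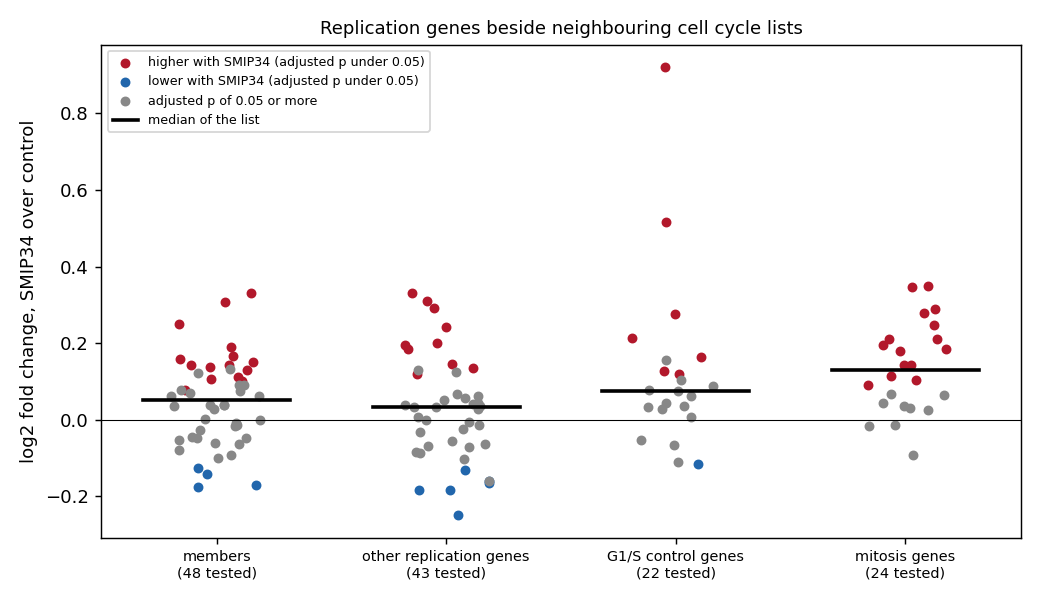
Log2 fold change of SMIP34 over control (y axis) of each tested gene of the 48 replication genes (members), 43 other replication genes, 22 G1/S control genes and 24 mitosis genes, 1 point per gene, with a bar at the median of each list. The medians are 0.050, 0.034, 0.076 and 0.13, and CDKN1A at 0.92 and CDK6 at 0.52 lie above all replication genes.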

How the data were processed

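All 6 RNA-seq libraries (3 control, 3 SMIP34) were analysed, grouped by their labels, with no library left out. The authors deposited estimated counts per gene, in part fractional and not normalized. Per the file headers, featureCounts 1.5.0-p1 summed reads over exons of UCSC hg19 genes with a minimum mapping quality of 2, by strand (setting 2), and split multi-mapping reads and reads over more than 1 gene into fractions. Between 6.31 and 7.43% of values in a library were not whole (tolerance 1e-09), and 25 of the 48 genes had a fractional count in at least 1 library. The submitters' notes list HISAT2, while the methods of the study name tophat2, HTSeq and DESeq2. The labels name library kits of different makers without assigning them to libraries.

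Counts were rounded, filtered with edgeR's filterByExpr function, scaled by TMM (factors 0.988 to 1.01) and tested with the quasi-likelihood method of edgeR 4.0.16 (R 4.3.3, legacy off), with Benjamini-Hochberg adjustment over 13408 genes. Standard errors came from the F statistic and confidence intervals (95%) from the quasi-likelihood degrees of freedom. The smallest count of any of the 48 genes in a library was 330.

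Alternatives were DESeq2 1.42.0, limma voom (limma 3.58.1), 3 other scalings, 2 other filters (none, and over 1 CPM in at least 3 libraries), the legacy method, the replicate number as a block, length offsets (loess, span 0.3) with and without the block, and leaving out each library. Members and lists were chosen with earlier results of these data known, so no set test was run. All 48 genes may be named, and full statistics go to the largest called change of each role group, to PCNA, MCM2 and RRM2, and to up to 2 rises and 2 falls of each other list. Values of other genes named are given as context. Scripts were tested on simulated data. Promoters came from RefSeq (GRCh38.p14), and figures were drawn with matplotlib 3.10.9.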

Additional observations from a re-analysis of the deposited data

How the results depend on the processing

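The count of 0 replication genes past both thresholds held in all 17 alternatives. The median log2 fold change of the 48 genes, 0.050, was 0.036 with upper quartile scaling and 0.069 with library size only, and between 0.036 and 0.059 when single libraries were left out (lowest without SMIP34 replicate 1). With length offsets 2 of the 48 genes fell in place of 4, with and without the block. Among the G1/S control genes 11 in place of 7 rose with library size only and with length offsets, with and without the block. There 1 in place of 2 passed both thresholds with length offsets (with and without the block) and between 1 and 2 without single libraries, where also between 1 and 2 fell. Of the mitosis genes 1 in place of 0 fell with upper quartile scaling, the filter on 1 CPM and the legacy method. The causes were not tested. The replicate numbers were not taken as pairs, since the labels do not say that equal numbers mark a shared culture or day. Deviations of libraries with the same number had correlations of -0.028, 0.033 and -0.011, and 2 of 6 libraries correlated best with their own number. With 3 libraries in each group such correlations cannot exclude pairing. With the replicate block 18 of the 19 calls among the 48 genes were kept, with 14 higher and 4 lower, and MCM6 was lost (log2 fold change 0.078, adjusted p = 0.0722). No called gene reversed. Genes of low count limit precision most, as POLE2 shows with a standard error of 0.077. With a library left out, the remaining libraries still gave 2 against 3, with fewer degrees of freedom.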

Other observations

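Genes of the thymidylate route were picked out after their values were seen. Thymidylate synthase (TYMS), deoxyuridine triphosphatase (DUT), which makes its substrate, and thymidylate kinase (DTYMK), which acts on its product, all fell. DUT was at 215, 214 and 203 CPM in the control libraries and 195, 188 and 193 CPM in the SMIP34 libraries (log2 fold change -0.13, standard error 0.031, adjusted p = 0.00143). DTYMK was at 101, 97.4 and 92.8 CPM in the control libraries and 83.9, 88.5 and 83.7 CPM in the SMIP34 libraries (log2 fold change -0.18, standard error 0.038, adjusted p = 0.000522). In neither DUT nor DTYMK did the groups overlap, and their calls were kept in all 17 alternatives, while that of TYMS was lost with length offsets. These offsets also moved DTYMK to -0.11 (adjusted p = 0.0218). RRM2, which supplies all deoxynucleotides, rose, and the salvage kinase TK1 was not called.

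Beside CLSPN, further genes of the ATR checkpoint were looked at after their values were seen. TOPBP1, the activator of ATR, was at 70.5, 67.2 and 68.1 CPM in the control libraries and 77.2, 76.2 and 82.8 CPM in the SMIP34 libraries (log2 fold change 0.20, standard error 0.041, adjusted p = 0.000406), with every treated library above every control. ATR itself was at 20.8, 22.1 and 23.6 CPM in the control libraries and 27.0, 26.2 and 25.5 CPM in the SMIP34 libraries (log2 fold change 0.24, standard error 0.063, adjusted p = 0.00416), with 0.16 under length offsets (adjusted p = 0.0478) and no call with these offsets and the replicate block together (adjusted p = 0.0608). CHEK1, the kinase that claspin presents to ATR, was at 80.5, 73.9 and 75.8 CPM in the control libraries and 71.8, 72.4 and 75.2 CPM in the SMIP34 libraries and was not called (log2 fold change -0.069, standard error 0.040, adjusted p = 0.196). ATRIP, the partner of ATR, was not called (log2 fold change 0.028, adjusted p = 0.797), nor was TIPIN (log2 fold change -0.0071, adjusted p = 0.954). TIMELESS, which with TIPIN travels with the fork, had every treated library below every control but was not called (log2 fold change -0.072, adjusted p = 0.0772), although it was called lower with upper quartile scaling (adjusted p = 0.036) and with length offsets (adjusted p = 0.00543, and 0.00976 with the block). CDC25A, the phosphatase that CHK1 marks for destruction, rose.

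The promoters of the other lists were searched in the same way. Among 19 mitosis genes with a RefSeq promoter, 16 (84.2%) held a CCAAT box and 2 an E2F word, against 22 and 16 of 41 replication genes. Of 37 other replication genes 23 (62.2%) held a CCAAT box and 4 (10.8%) an E2F word. Of 18 G1/S control genes 5 (27.8%) held a CCAAT box and 3 (16.7%) an E2F word. Of all RefSeq promoters, which include those of genes not tested here, 33.0% held a CCAAT box and 2.79% an E2F word. These counts are descriptions, and no difference between them was tested.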
